A study of Homo sapiens with 8 samples.

Results

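Metallothioneins and zinc regulators were 8 genes, MT1E, MT1F, MT1G, MT1M, MT1X, MT2A, MTF1 and SLC30A1, taken by name from the 58735 rows of the deposited count table, where each name had 1 row. They were chosen by their measured log2 differences between treated and control libraries, which were already known. Those differences are therefore given as a description, with fitted standard errors and no p-value. Where a count of calls among them is printed it restates that choice, and nothing is supported with it. RNA was sequenced from SV-HUC1, a line of human urothelial cells immortalised with SV40, in 8 libraries. The 4 controls were untreated, and the other 4 cultures were kept for 24 h with 20 mU/ml of glucose oxidase, an enzyme that turns glucose and oxygen into hydrogen peroxide. All cultures were grown in the same medium with serum, both groups came from 1 cell line, and no group received inactive enzyme or peroxide alone. Each group carries replicate numbers 1 to 4, and nothing in the labels says whether libraries of 1 number were grown together.

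Metallothioneins are small cytosolic proteins rich in cysteine that bind zinc and copper and react with oxidants. Their genes are switched on by MTF1, a zinc finger transcription factor that binds metal response elements when free zinc rises. SLC30A1 is a zinc exporter of the plasma membrane and another target of MTF1. In epithelial cells MT2A and several MT1 genes are usual forms, while MT3 and MT4 are known from brain and from stratified squamous epithelium.

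The coding sequences of 4 metallothioneins are shown because their likeness sets how well short reads can be told apart. They were read from the GENCODE release 29 transcripts (GRCh38). Capitals mark the 29 of 186 positions at which the 4 are not all the same.
MT2A: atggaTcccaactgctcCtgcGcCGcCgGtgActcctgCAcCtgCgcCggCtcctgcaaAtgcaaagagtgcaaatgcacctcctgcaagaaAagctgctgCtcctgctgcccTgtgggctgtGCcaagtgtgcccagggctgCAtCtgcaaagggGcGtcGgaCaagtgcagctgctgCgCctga
MT1X: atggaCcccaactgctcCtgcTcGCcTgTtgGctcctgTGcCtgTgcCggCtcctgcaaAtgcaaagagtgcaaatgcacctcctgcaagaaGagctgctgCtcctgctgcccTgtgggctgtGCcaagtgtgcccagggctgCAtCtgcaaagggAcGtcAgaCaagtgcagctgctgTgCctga
MT1F: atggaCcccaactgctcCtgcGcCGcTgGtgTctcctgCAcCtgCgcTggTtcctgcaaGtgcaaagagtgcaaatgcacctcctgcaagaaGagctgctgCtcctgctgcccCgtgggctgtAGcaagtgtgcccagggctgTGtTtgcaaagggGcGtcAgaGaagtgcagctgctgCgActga
MT1E: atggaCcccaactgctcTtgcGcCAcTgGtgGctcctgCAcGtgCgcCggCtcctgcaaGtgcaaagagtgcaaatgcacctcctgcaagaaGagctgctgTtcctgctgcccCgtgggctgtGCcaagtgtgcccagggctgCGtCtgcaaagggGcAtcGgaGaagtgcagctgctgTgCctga
Each of the 6 metallothionein members has 20 cysteine codons among 61. MT2A and MT1X differ at 14 of the 186 coding bases (92.5% identity), MT2A and MT1F at 16, and MT1X and MT1F at 21.

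Whole transcripts differ more than coding regions do. Of the 50-base windows of the principal MT2A transcript, 4.88% also occur in a transcript of another gene on either strand, and the share is 3.59% for MT1F, 5.34% for MT1E and 7.05% for MT1M. It is 20.2% for MT1G and 45.1% for MT1X. At 100 bases the share is 0% for these genes other than MT1X, where it is 19.1%. All shared MT1X windows of 100 bases lie in AC026461.1, a processed transcript that overlaps MT1X by 1727 bases on the same strand and had 0 counts in every library. The read length and the treatment of reads that fit several genes are not stated in the sources used here. Counts of MT1X in particular are therefore uncertain in level.

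SV-HUC1 cells expressed 3 metallothioneins. The deposited table holds 21 metallothionein rows, of which 16 lie on chromosome 16 between 56565049 and 56684196 (GRCh38). MT2A, MT1F and MT1X took 99.8% of all counts in these rows. The other 18 rows, 9 of them protein-coding genes, held 120 counts in all 8 libraries together and at most 9 in any library, and 7 rows had 0 counts in every library. The largest of them were MT1P1, a processed pseudogene (30 counts), MT1DP, a transcribed pseudogene (26 counts), and MT1A, a protein-coding MT1 gene (25 counts). MT3 had 13 counts and MT4 had 0.

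**Figure D1:**
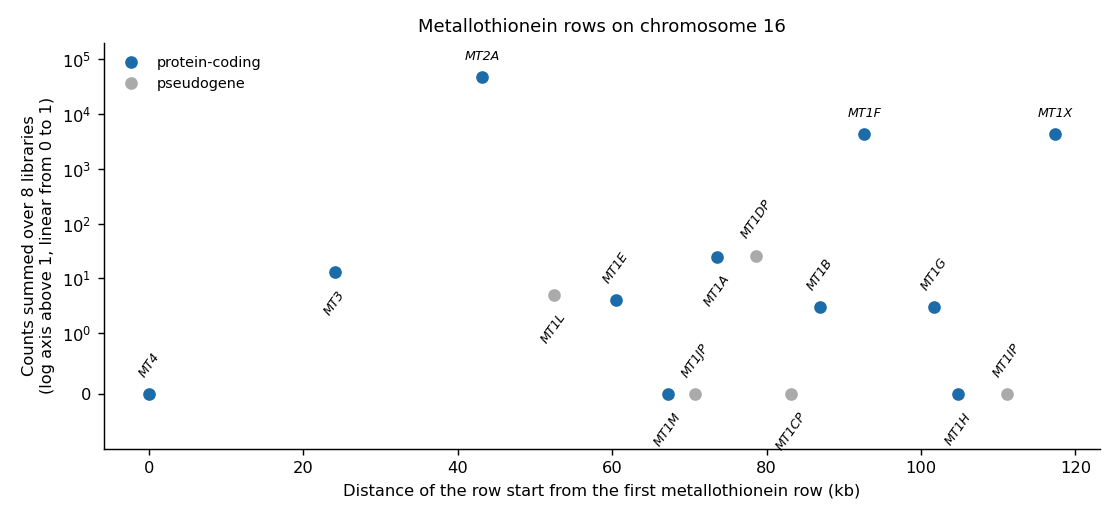
Counts summed over 8 libraries for each metallothionein row on chromosome 16 (vertical axis, logarithmic above 1), against the distance in kb of the row's start from that of the first row. MT2A (46543 counts), MT1X (4286) and MT1F (4247) stand above rows of at most 26 counts.

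Of the 8 members, 5 passed the filter on low counts and 3 did not. MT1E had 3 counts in control 1, 1 count in treated 2 and 0 in the other libraries. MT1G had 3 counts in control 4 and 0 elsewhere. MT1M had 0 counts in all 8 libraries, which at these depths allows up to 0.110 to 0.140 CPM per library (3 counts, counting error only). That limit is per total counts, without the TMM normalisation used for other CPM values. These 3 genes, all in the MT1 cluster on chromosome 16 (MT1E 56625475 to 56627112, MT1M 56632233 to 56633986, MT1G 56666731 to 56668065), show no direction at such counts. Most 50-base windows of MT1E (94.7%) and MT1M (92.9%) occur in no other gene's transcripts.

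MT2A, the most abundant metallothionein here (ENSG00000125148, chromosome 16, 56608199 to 56609497), was at 340.0, 143.4, 428.6 and 373.1 CPM in controls 1 to 4. CPM is a count scaled to the size of its library, with TMM normalisation. In treated libraries 1 to 4 it was at 145.3, 129.0, 241.9 and 240.7 CPM. Control 2 lay among the treated libraries and the other 3 controls lay above all of them. The group means were 321.3 ± 124.1 and 189.2 ± 60.5 CPM (SD, n = 4). With the replicate number as a block in edgeR, the fitted log2 change of MT2A was -0.71 (SE 0.17). Treated libraries were at 0.427, 0.900, 0.564 and 0.645 times the control of their number. Pair 2 thus stood apart from the other pairs, and its control differed most from other controls.

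MT1X (ENSG00000187193, chromosome 16, 56682424 to 56684196) was at 20.1, 11.2, 59.3 and 46.6 CPM in controls 1 to 4 and at 8.09, 5.51, 22.2 and 22.8 CPM in treated libraries. Each treated library was below the control of its number, at 0.375 to 0.493 of it, while the groups overlapped because treated 3 and 4 were above controls 1 and 2. Its fitted log2 change with the block was -1.20 (SE 0.14), the largest in size among the 5 members tested in that fit. MT1F (ENSG00000198417, chromosome 16, 56657694 to 56660698) was at 22.3, 15.5, 45.5 and 35.6 CPM in controls and at 12.7, 8.92, 22.8 and 24.5 CPM in treated libraries. MT1F showed the same layout, with every treated library below its numbered control and overlapping groups. The fitted log2 change of MT1F was -0.79 (SE 0.14).

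In TMM-normalised CPM, replicates 3 and 4 had more of each expressed metallothionein than replicates 1 and 2, in both groups. In controls the mean of replicates 3 and 4 was 3.38 times that of replicates 1 and 2 for MT1X, 2.15 times for MT1F and 1.66 times for MT2A. For MT2A the excess over control 1 depended on the scaling. Control 1 had 7866 MT2A counts, against 7746 in control 3 and 7763 in control 4, both deeper libraries. This division of the libraries was found from expression values, is not in the labels and was not tested for these genes. Summed over the 6 metallothionein members, the level was 385.3 ± 156.2 CPM in controls and 221.1 ± 77.1 CPM in treated libraries (SD, n = 4), 1.74 times as high in controls. The sum does not depend on how reads were divided among these 6 genes. By pair, the log2 ratio of the sum was -1.20, -0.25, -0.89 and -0.66. Without control 2 the controls were 2.07 times the treated libraries.

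**Figure D2:**
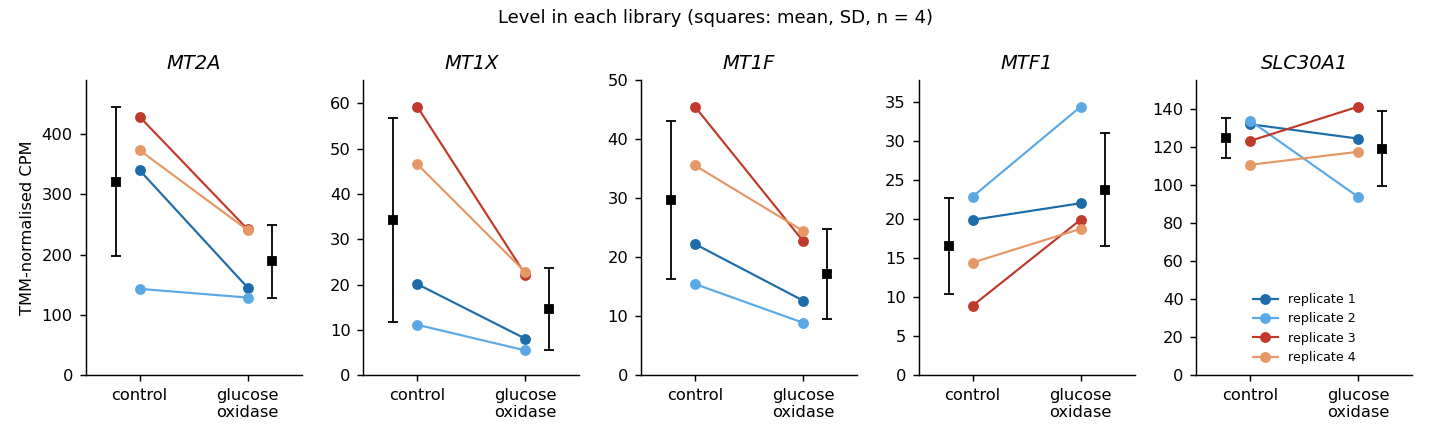
TMM-normalised CPM (vertical axis, from 0) of the 5 expressed members in control and treated libraries. Lines join libraries of 1 replicate number, and black squares with bars are the mean and SD of 4 libraries. Lines of MT2A, MT1X and MT1F all descend, those of MTF1 all ascend and those of SLC30A1 go both ways.

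MTF1, the zinc-sensing activator of metallothionein genes (ENSG00000188786, chromosome 1, 37809567 to 37859620), was higher in each treated library than in its numbered control. It was at 19.9, 22.8, 8.91 and 14.4 CPM in controls 1 to 4 and at 22.01, 34.4, 19.9 and 18.7 CPM in treated libraries. The groups overlapped, control 3 was lowest and treated 2 highest. Its fitted log2 change with the block was 0.56 (SE 0.16). In TMM-normalised CPM, treated 2, the library with most MTF1, had the least of all 3 expressed metallothioneins. Control 3, with least MTF1, had the most of them on that scale. For MT2A this depended on the scaling, as control 1 had more MT2A counts than control 3 (7866 against 7746) in a shallower library. Treated 2 and control 3 were also highest and lowest in the median of the genes with the longest 10% of principal transcripts (0.41 and -0.27, log2 CPM minus its mean). A relation between MTF1 and the metallothioneins was not tested.

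SLC30A1, the zinc exporter (ENSG00000170385, chromosome 1, 211571568 to 211578742), was at 131.9, 133.7, 123.2 and 110.6 CPM in controls and at 124.3, 93.6, 141.1 and 117.4 CPM in treated libraries. The treated libraries covered the range of the controls on both sides. The fitted log2 change was -0.08 (SE 0.15) with the block, and it became 0.03 (SE 0.16) when libraries were scaled by total counts. SLC30A1 was thus at 0.700 to 1.15 times its numbered control.

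The contrast that chose these genes places 3 of the 5 (MT2A, MT1X and MT1F) lower and 1 (MTF1) higher at an adjusted p below 0.05 in edgeR with the block. This count restates the choice of members, and nothing is read from it. Over all 17413 genes 6.97% were called lower and 7.51% higher in that fit. Of the 10% of genes with the shortest principal transcripts, which include MT2A, MT1X and MT1F, 13.4% were called lower. The fit without the block called 0 of the 5 members and 0% of all genes, and 1284 genes had an unadjusted p below 0.05. All 4 treated libraries were below their numbered control for 17.1% of all genes and above it for 16.8%. The median log2 change was -0.71 for the 5 members and -0.01 for all genes, and scaling by total counts moved the latter to 0.10.

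The size of the differences moved with the libraries in the fit. MT2A had a log2 change of -0.52 without pair 1, and MTF1 had one of 0.37 without pair 3, while MTF1 stayed at 0.56 without pair 2. When the block was replaced by a term that set replicates 3 and 4 apart from the rest, MT2A had -0.77, MT1X -1.22, MT1F -0.79 and MTF1 0.56. In that fit 6.79% of all genes were called (3.72% higher and 3.07% lower). Shares of all genes called higher and lower were 9.62% and 3.07% with total counts and the block, and 8.09% and 8.69% with DESeq2 and the block. Among unfiltered genes 0.0855% were called (0.0453% higher), and with the block added 5.77% were (3.31% higher and 2.45% lower). Correction for gene length with the block gave 12.6% (5.86% higher and 6.74% lower), and correction for the principal transcript gave 11.2% (5.16% higher and 6.02% lower).

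Levels of different genes are compared per kilobase, in the deposited FPKM values. In controls MT2A was at 245.8 ± 99.2, SLC30A1 at 22.5 ± 1.58, MT1X at 19.3 ± 13.02, MT1F at 15.7 ± 7.46 and MTF1 at 2.02 ± 0.71 FPKM (SD, n = 4). MT2A stood above all others and MTF1 below all others, whereas SLC30A1, MT1X and MT1F did not differ beyond their spread. In treated libraries the order of the middle 3 was SLC30A1 (21.5 ± 3.87 FPKM), MT1F (9.01 ± 4.07) and MT1X (8.18 ± 5.16). On this gene length SLC30A1 stood above both, which did not differ beyond their spread. The gene length in the deposited table joins all annotated exons and exceeds the principal transcript of the metallothioneins (1299 against 786 bases for MT2A, 1773 against 450 for MT1X, 1889 against 690 for MT1F). It is 5474 bases by both counts for SLC30A1, and the order depends on this choice. Over the principal transcript, the deposited values rescaled give MT2A 406.3 ± 163.9, MT1X 76.2 ± 51.3, MT1F 42.9 ± 20.4 and SLC30A1 22.5 ± 1.58 per kilobase in controls. In treated libraries the same rescaling gives MT2A 237.7 ± 78.9, MT1X 32.2 ± 20.3, MT1F 24.7 ± 11.1 and SLC30A1 21.5 ± 3.87. SLC30A1 is then below the means of all 3 metallothioneins, and in treated libraries it did not differ from MT1X or MT1F beyond their spread.

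The authors' deposited table, made from the same counts, gave log2 changes of -1.24 for MT1X, -0.77 for MT2A and -0.80 for MT1F. That table gave MTF1 0.52 and SLC30A1 -0.07, and none of these genes had an adjusted p below 0.05 in it. The table covers the libraries and the contrast by which the members were chosen, so it is no separate support. MT1M has no row among its 36644 genes.

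Promoters of MT2A, MT1X and SLC30A1 are shown because these genes are known targets of MTF1. RefSeq promoter sequences (GRCh38.p14) matched 4 of the 8 members by symbol, the fourth being MTF1. Each run is the 250 bases before the RefSeq start on the gene's strand. Capitals mark the core of the metal response element, searched as TGCACNC and TGCGCNC on both strands.
MT2A, chr16:56608334-56608583, plus strand: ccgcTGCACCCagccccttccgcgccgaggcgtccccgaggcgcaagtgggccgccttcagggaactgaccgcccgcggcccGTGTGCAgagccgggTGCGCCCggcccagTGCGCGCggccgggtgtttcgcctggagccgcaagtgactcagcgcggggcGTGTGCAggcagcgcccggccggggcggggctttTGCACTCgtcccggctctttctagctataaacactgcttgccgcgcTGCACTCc
MT1X, chr16:56682220-56682469, plus strand: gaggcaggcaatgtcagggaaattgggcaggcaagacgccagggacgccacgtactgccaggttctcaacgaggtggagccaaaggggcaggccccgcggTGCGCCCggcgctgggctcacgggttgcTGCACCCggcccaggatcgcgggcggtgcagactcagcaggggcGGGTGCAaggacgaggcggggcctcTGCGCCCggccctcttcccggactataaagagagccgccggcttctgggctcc
SLC30A1, chr1:211579162-211579411, minus strand: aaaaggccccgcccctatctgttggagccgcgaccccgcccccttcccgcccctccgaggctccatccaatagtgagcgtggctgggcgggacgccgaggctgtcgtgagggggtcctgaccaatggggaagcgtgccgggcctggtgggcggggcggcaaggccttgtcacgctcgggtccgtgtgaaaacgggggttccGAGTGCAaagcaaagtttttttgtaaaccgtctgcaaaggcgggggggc
MT2A held 7 matches in this window, MT1X 4, SLC30A1 1 and MTF1 0. Of 35116 promoters in the table, 24.8% held at least 1 match, 0.370% at least 4 and 0.0313% at least 7. The motif is known from metallothionein promoters, so its number there is a description of these sequences. Matches were counted from the RefSeq start only. The counted row of SLC30A1 begins at 211578742 on the minus strand, outside the window shown. A relation between the number of matches and the differences in level was not tested. A core of the antioxidant response element, searched as TGACNNNGC on both strands, had 1 match each in MT2A, MT1X and SLC30A1, and 10.9% of all promoters held at least 1.

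Metallothionein transcripts are short, and the libraries differed in short transcripts. The 1743 genes with a principal transcript of at most 887 bases, the shortest 10% of genes tested, include MT2A, MT1X and MT1F. The median of log2 CPM minus its mean over libraries in these short genes was 0.28, 0.08, 0.17 and 0.06 in controls 1 to 4. In treated libraries 1 to 4 it was -0.03, -0.21, -0.01 and 0.05. The corresponding values of MT2A were 0.55, -0.70, 0.88 and 0.68 in controls and -0.68, -0.85, 0.06 and 0.05 in treated libraries. Treated 2 was thus lowest in both, while control 2 was low in MT2A and not in the short genes. How far transcript length accounts for the difference in MT2A was not tested beyond the correction that follows. MTF1, with a principal transcript of 7972 bases, is among the longest 10%, whose median ran from -0.27 in control 3 to 0.41 in treated 2, the libraries in which MTF1 was also lowest and highest.

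In edgeR with the block the median log2 change was -0.23 over the shortest 10% of genes. Over the longest 10% it was 0.22. After a correction of each library for principal transcript length, these medians were -0.03 and 0.01. Of the shortest 10%, 12.4% had a log2 change below that of MT2A before the correction and 12.0% after it. With that correction MT1X had a log2 change of -0.99, MT1F one of -0.59 and MT2A one of -0.52, against -1.20, -0.79 and -0.71 before it. MTF1 had 0.35, against 0.56. All 4 differences were smaller in size after the correction and kept their sign.

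**Figure D3:**
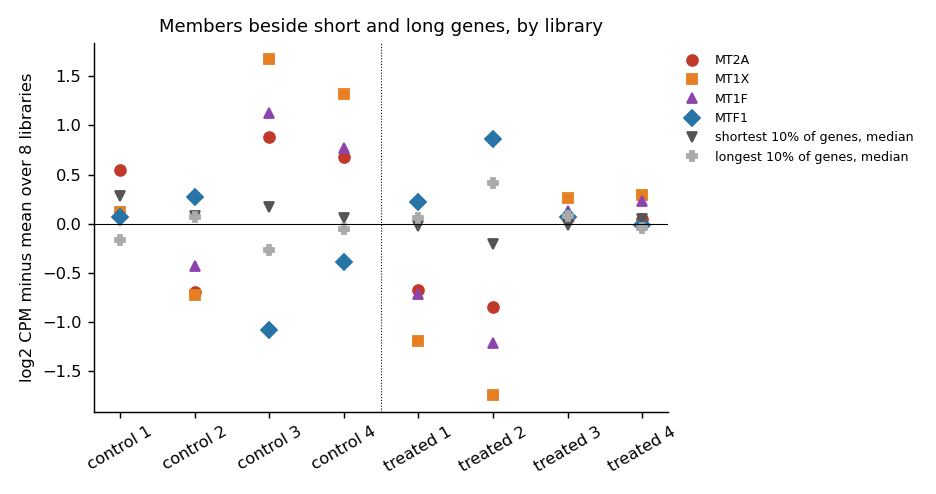
Log2 CPM minus the mean over 8 libraries (vertical axis) in each library for MT2A, MT1X, MT1F and MTF1, with the median over the shortest and the longest 10% of genes. Each member is a single gene and the other series are medians over many genes, so their spreads cannot be compared. MTF1 and the long genes were both highest in treated 2.

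Of 19 zinc transporters tested with the block 1 passed as higher and 2 as lower, where 14.5% of all genes passed in either direction. Importers were not tested against exporters. For the lists that follow, "rose" and "fell" require an adjusted p below 0.05 in edgeR with the block. In that fit 7.51% of all genes were higher and 6.97% lower, and with the group alone 0% of all genes passed. Of 14 importers of the SLC39 family 12 were tested, of which 1 rose, 2 fell and 9 did not pass. SLC39A14, which carries zinc, iron and manganese and had the highest CPM of the importers (not a comparison per length), averaged 111.2 ± 45.7 CPM in controls and 165.1 ± 48.9 CPM in treated libraries (SD, n = 4). It rose by 0.61 on the log2 scale (SE 0.14, edgeR adjusted p = 0.00544). It was at 131.7, 166.0, 70.3 and 76.9 CPM in controls and at 192.6, 219.9, 127.8 and 120.1 CPM in treated libraries. Each treated library was above its numbered control and the groups overlapped. SLC39A2, with a mean of 4.40 ± 1.46 CPM over controls against 2.17 ± 0.515 CPM over treated libraries, fell by 0.99 on the log2 scale (SE 0.23, edgeR adjusted p = 0.00534). SLC39A4, the importer mutated in acrodermatitis enteropathica, fell by 0.42 on the log2 scale (edgeR adjusted p = 0.0381). The calls of SLC39A14 and SLC39A2 held in each fit without 1 pair, and that of SLC39A4 was lost in each (adjusted p = 0.0546 to 0.208). SLC39A10, another importer, had a log2 change of -0.39 (edgeR adjusted p = 0.068), and of -0.53 with the principal transcript correction (adjusted p = 0.0164). It was named after its values were seen.

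Of 9 SLC30 exporters other than SLC30A1, 7 were tested and 0 passed with the block (edgeR; 1 at an unadjusted p below 0.05). SLC30A9, of highest CPM among them, averaged 160.4 ± 62.8 CPM over controls against 131.1 ± 50.7 CPM over treated libraries (log2 change -0.30, SE 0.14, edgeR adjusted p = 0.168), and passed as lower with the correction for principal transcript length (-0.47, adjusted p = 0.0353). The median log2 change was -0.02 for exporters and -0.15 for importers, against -0.01 for all genes.

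Among copper handling genes those that passed were lower. Of 15 tested, 4 fell, 0 rose and 11 did not pass, with a median log2 change of -0.18. COX17, which brings copper to cytochrome c oxidase, fell by 0.81 (SE 0.16, edgeR adjusted p = 0.00116), and ATOX1, a cytosolic copper chaperone, by 0.68 (SE 0.14, adjusted p = 0.00235). SOD1, the copper and zinc superoxide dismutase, averaged 487.6 ± 301.8 CPM over controls against 312.0 ± 160.6 CPM over treated libraries (SD, n = 4) and fell by 0.60 on the log2 scale (edgeR adjusted p = 0.0136), and COMMD1 fell by 0.50 (adjusted p = 0.0191). All 4 have short principal transcripts of 684 to 966 bases. With the correction for principal transcript length COX17 (-0.61) and ATOX1 (-0.48) passed, and SOD1 (-0.41) and COMMD1 (-0.31) did not. With the term setting replicates 3 and 4 apart, ATOX1 alone passed. SOD1 was also lost without pair 3 (adjusted p = 0.1075), and COMMD1 without pair 3 (0.210) or pair 4 (0.058).

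Of 7 factors known at metallothionein promoters 2 rose, the coactivators CREBBP (log2 change 0.77, SE 0.15, edgeR adjusted p = 0.00133) and EP300 (0.79, SE 0.17, adjusted p = 0.00273). CREBBP was at 62.9, 107.8, 28.9 and 39.6 CPM in controls and at 104.7, 203.2, 63.8 and 48.4 CPM in treated libraries, above its numbered control each time. Both have long principal transcripts, of 10803 bases for CREBBP and 9587 for EP300, and with the length correction their log2 changes were 0.53 and 0.56 and still passed. With the term setting replicates 3 and 4 apart, EP300 did not pass (adjusted p = 0.0655). NFE2L2, of highest CPM among the 7, had a log2 change of 0.19 (SE 0.15, edgeR adjusted p = 0.412). The median log2 change of the 7 was 0.28.

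Glucocorticoids also induce MT2A, so targets of their receptor were set beside it. Of 7 such genes 6 were tested, 2 rose and 0 fell, with a median log2 change of 0.38. FKBP5 had a log2 change of 0.54 (edgeR adjusted p = 0.027) and PER1 one of 0.43 (adjusted p = 0.040). Neither passed without pair 2, 3 or 4 (adjusted p of 0.0695 to 0.212 for FKBP5 and 0.0919 to 0.189 for PER1), nor with either length correction. With the term setting replicates 3 and 4 apart 0 of the 6 passed (edgeR adjusted p of 0.0593 for FKBP5 and 0.0858 for PER1). TSC22D3, of highest CPM among them, had log2 ratios of -0.31, -0.08, 0.89 and 0.98 in pairs 1 to 4 (edgeR adjusted p = 0.188).

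**Figure D4:**
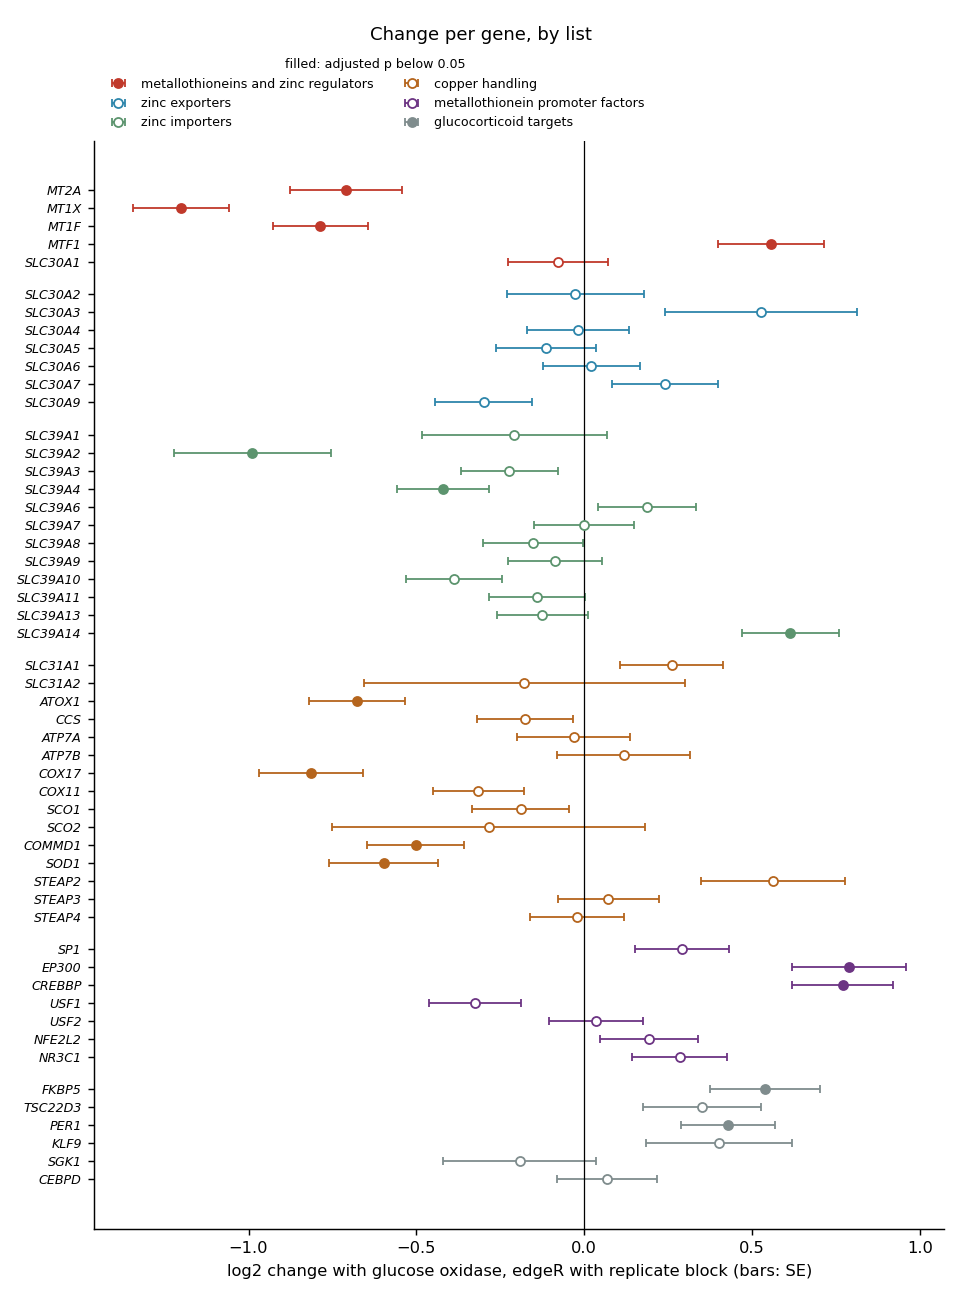
Fitted log2 change with glucose oxidase (horizontal axis, edgeR with the replicate number as a block, bars are SE) for every tested gene of the lists, filled where the adjusted p was below 0.05 (for the members this restates how they were chosen). MT1X lies farthest to the left, and EP300 and CREBBP farthest to the right.

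Genes of like pattern were ranked by the root-mean-square difference of centred log2 CPM over the 8 libraries, among the 10880 genes that code for protein and averaged 5 CPM or more. Nearest to MT2A were NDUFC2 (0.136), ELOB (0.173), TMSB10 (0.176) and VAMP8 (0.179). MT1F ranked 80th by this measure (0.255) and MT1X 3613th (0.544). The measure also counts a wider swing as distance, so a low rank does not show a different layout. Centred values of MT1X ran from -1.74 in treated 2 to 1.67 in control 3. Those of MT2A ran from -0.85 to 0.88 between the same libraries. Nearest to SLC30A1 were ZC2HC1A (0.0759), GTPBP10 (0.0828), ZNF518A (0.0858) and XRCC2 (0.0914).

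Total counts ran from 21437267 to 27183692 per library. Of 9 epithelial and urothelial markers 9 were tested, and their summed level was 5117 to 7231 CPM in controls and 3839 to 4298 CPM in treated libraries. Of 3 uroplakins, markers of terminal urothelial cells, 2 were below 1 CPM. Markers of fibroblasts summed to 15.8 to 27.0 CPM, of endothelial cells to 2.02 to 5.67 CPM and of leukocytes to 2.36 to 5.26 CPM over all libraries, with 0 of these markers at 0 in every library. The sum is carried by KRT8 (1804 CPM in controls), KRT19 (1569 CPM) and KRT7 (1330 CPM), and the 9 did not move together. KRT19 fell by 0.87, KRT5 by 0.75 and KRT8 by 0.58 on the log2 scale in edgeR with the block (adjusted p of 0.00166, 0.00166 and 0.0338). GATA3 rose by 0.52 (adjusted p = 0.0191), and 5 markers did not pass, among them CDH1 (0.35) and KRT18 (-0.04). Their part in the differences above was not tested. In bulk RNA, fewer cells of a kind and less RNA per cell cannot be told apart.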

How the data were processed

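RNA-seq gene counts of 4 control and 4 glucose oxidase libraries were used. Per the submitters' processing notes, the tools were HISAT2 2.0.5, featureCounts 1.5.0-p3 and DESeq2 1.20.0 with the build GRCh38.p13. The strand setting is not stated in the sources used here. Gene counts were deposited as unnormalised whole numbers. The deposited FPKM values were made by the authors. Their comparison table holds, per the file headers, a log2 fold change, a p-value and an adjusted p-value, beside a size-factor-normalised signal that the authors gave per library and per group. All 58735 rows have identifiers and coordinates of GENCODE release 29.

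Counts were tested over all genes with edgeR 4.0.16 in R 4.3.3 (quasi-likelihood, TMM, filterByExpr, Benjamini-Hochberg threshold 0.05), which left 17413 genes. Standard errors are the size of the fitted change divided by the square root of F. The group alone was the chosen model. Deviations from group means correlated at 0.532, 0.678, 0.590 and 0.503 between same-numbered libraries, over a minimum of 0.1, so fits with the replicate number as a block are given beside it. Differently numbered libraries inside replicates 1 and 2 or 3 and 4 correlated at 0.443 to 0.652. The values of pairs 1, 3 and 4 lie inside that range, so this check does not single out same-numbered libraries as pairs. Alternatives were DESeq2 1.42.0, other scalings, no filter, length corrections (per-library loess on transcript length) and leaving out libraries. The fits were run on simulated data with differences between replicate numbers built in, which cannot show whether blocking by number is right here. P-values of fits with the block measure the spread left after differences between replicate numbers are removed. Those of the group alone measure the spread between libraries. Whether the cultures were independent is known only from the labels.

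Members and lists were chosen with earlier results of these data known. Named genes were every member, metallothionein rows of at least 0.1 mean CPM, in each list up to 6 genes that passed with the block and its gene of highest CPM, and the 4 genes of nearest pattern. SLC39A10 and COX11 were named after their values were seen. No per-sample column lacked a sample.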

Additional observations from a re-analysis of the deposited data

Results flagged for a closer look

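NFE2L2, which encodes the antioxidant factor NRF2, stood out in 1 control library among the 40 groups of 4 values examined for a library far from the others. Control 3 had 213.6 CPM, while the other controls had 172.2 to 177.5 CPM. The gap to the nearest control was 0.872 of the whole range, above Dixon's critical value for 4 samples. Chance gives such a gap in about 1 in 20 groups.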

How the results depend on the processing

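With the group alone edgeR called 0 genes, and so it did for each list, with DESeq2 size factors, with total counts and in the 8 fits without 1 library. The replicate block gave 1308 genes higher and 1213 lower, the term for replicates 1 and 2 against 3 and 4 gave 648 and 534, total counts with the block 1675 and 535, and the gene length correction with the block 1020 and 1174. The principal transcript length correction, chosen after seeing the data, gave 898 and 1048. No filter on low counts gave 18 and 16 without the block and 1317 and 976 with it. DESeq2 gave 35 and 39 without the block and 1210 and 1301 with it. Under the block, leaving out pair 1 gave 917 higher and 717 lower, pair 2 864 and 638, pair 3 593 and 507, and pair 4 978 and 908.

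Members were chosen by this same contrast, so their counts of calls are listed for completeness and show no stability. Metallothioneins lower numbered 3 in every fit with the block or the term on all libraries (MT2A, MT1X and MT1F) and 2 to 3 without 1 pair. MTF1 was the 1 member higher with the block, alone or with total counts, no filter or DESeq2, and 0 to 1 were higher without 1 pair. Copper genes lower numbered 4 with the block, alone or with no filter, DESeq2 or the gene length correction, 3 with total counts, 2 with the principal transcript correction, 1 with the term and 2 to 4 without 1 pair. The genes were not always the same. With the gene length correction COX11 passed (edgeR adjusted p = 0.0491) and COMMD1 did not (0.0548). Promoter factors higher numbered 2 in each fit with the block and 1 with the term. Glucocorticoid targets higher numbered 2 with the block, alone or with total counts or DESeq2, 1 with no filter, 0 with the term and 0 to 2 without 1 pair. Zinc transporters higher numbered 1 in each fit with the block or the term. Those lower numbered 2 with the block or DESeq2, 1 with the term, total counts or no filter, 3 with either length correction and 1 to 2 without 1 pair. SLC39A2 and SLC39A10 passed with both length corrections. SLC39A4 passed with gene length only (edgeR adjusted p = 0.0237, against 0.0691 with the principal transcript). SLC30A9 passed with the principal transcript only (0.0353, against 0.0719 with gene length). The cause of these differences was not tested.

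The log2 ratio of the summed metallothionein level was -0.80, and -1.05 to -0.60 without 1 library. It was -0.66 with total counts and -0.82 with DESeq2 size factors. SLC30A1 turned positive with total counts (0.00382 and, with the block, 0.0318), without treated 2 (0.048, with a range over single libraries from -0.16 to 0.048) and without pair 2 under the block (0.0804). TSC22D3 (0.13) turned negative without control 3 (-0.10), control 4 (-0.14) or treated 1 (-0.00478), in a range from -0.14 to 0.51. The signs of the other genes named by rule from the lists held in all 23 alternatives. For MT1E, MT1G and MT1M depth is the limit.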
